A study of Mus musculus with 17 samples.

Results

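Dapk3, Ano8, Alyref, Smap1, Slc44a1, Mtch1, Evl, Btbd2, Shc2 and Lrrc47 are 10 of the 15355 genes of the deposited table. They were picked by name because their values at birth were far lower in offspring of dams fed a high-fat diet than in offspring of chow-fed dams. All samples came from POMC RiboTag mice. RiboTag is an allele that puts an HA tag on a ribosomal protein once Cre has acted, and the driver here marks cells in which Pomc is, or was, active. The labels do not name the Cre line, and they give no strain or sex. The 4 groups were as follows. The chow P0 group (5 libraries) and the HFD P0 group (5 libraries) were taken at postnatal day 0. The chow P21 group (3 libraries) and the HFD P21 group (4 libraries) were taken at postnatal day 21, the day of weaning. HFD stands for a 45% high-fat diet that the dams received from 6 weeks of age, for 4 weeks before mating and until weaning, and the chow groups had standard chow throughout. Mediobasal hypothalamus was homogenized, ribosomes were pulled down with an HA antibody and the bound RNA was sequenced. The labels call the libraries biological replicates without saying whether animals were pooled or shared a litter, so every p-value here measures the spread between these libraries, which may be partly technical.

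POMC neurons sit in the arcuate nucleus and restrain feeding. Precursors that express Pomc early can later become other neuron types, so a Pomc driver can tag cells that no longer make Pomc. The 10 genes belong to no common pathway. Dapk3 encodes a serine/threonine kinase that phosphorylates myosin light chain, and Shc2 encodes an adaptor that links receptor tyrosine kinases to Ras signalling in neurons. Alyref is a subunit of the TREX complex, which hands spliced mRNA to the nuclear export receptor, and Lrrc47 encodes a leucine-rich-repeat protein. Ano8 is an anoctamin that tethers endoplasmic reticulum and plasma membrane, Slc44a1 is a choline transporter, and Mtch1 is an insertase of the mitochondrial outer membrane. Smap1 switches off the small GTPase Arf6 during clathrin-mediated endocytosis, Evl is an Ena/VASP protein that promotes actin filament growth, and Btbd2 is a BTB-domain protein that binds topoisomerase I.

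What most of these genes shared in sequence is a very GC-rich stretch in the transcript. For each gene the 100-base stretch of highest GC content was found in a GENCODE M21 transcript (GRCm38, the assembly also called mm10). The stretches of 4 members are printed here because Dapk3, Ano8 and Alyref differed most at birth and Mtch1 had the largest normalized signal, with every CG dinucleotide in capitals. Each runs 5′ to 3′ on the coding strand and lies within coding sequence of a single exon. For Dapk3 it is in exon 9 at chr10:81192593-81192692 (plus strand), for Ano8 in exon 18 at chr8:71476410-71476509 (minus strand), for Alyref in exon 1 at chr11:120598179-120598278 (minus strand) and for Mtch1 in exon 1 at chr17:29347657-29347756 (minus strand).
Dapk3: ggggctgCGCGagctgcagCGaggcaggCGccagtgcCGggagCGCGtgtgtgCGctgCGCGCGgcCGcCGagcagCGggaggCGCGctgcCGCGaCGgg
Ano8: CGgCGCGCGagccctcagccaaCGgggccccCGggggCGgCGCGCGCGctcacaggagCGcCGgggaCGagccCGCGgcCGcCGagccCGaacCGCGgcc
Alyref: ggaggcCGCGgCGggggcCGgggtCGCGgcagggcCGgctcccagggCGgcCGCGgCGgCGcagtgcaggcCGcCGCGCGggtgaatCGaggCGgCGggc
Mtch1: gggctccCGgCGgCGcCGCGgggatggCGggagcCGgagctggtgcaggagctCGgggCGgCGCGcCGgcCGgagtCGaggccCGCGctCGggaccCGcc
The GC content of these stretches was 82% in Dapk3, 86% in Ano8, 87% in Alyref and 85% in Mtch1, with 19, 21, 19 and 18 CG dinucleotides. Over the 13819 genes with a matched transcript the median was 73% and the upper quartile 80%. In 9 members the stretch held at least 82% GC, a level that 18.3% of these genes reached. Evl (89%), Smap1 (88%), Btbd2 (86%), Shc2 (83%) and Lrrc47 (83%) were the other members above it. Slc44a1, at 64%, was the exception and lay below the lower quartile of 68%. The Slc44a1 transcript used starts at chr4:53440671, however, and the annotated gene starts upstream, at 53440413. Any exon bases before the start of that transcript were not searched. The stretch was in coding sequence in 7 members, in the 5′ UTR in 2 (Smap1 and Evl), and across UTR and coding sequence in Slc44a1. This measure was chosen after the values of the genes had been seen. The level of 82% was set at the lowest value of these 9 members, so their count above it was fixed by that choice.

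**Figure D1:**
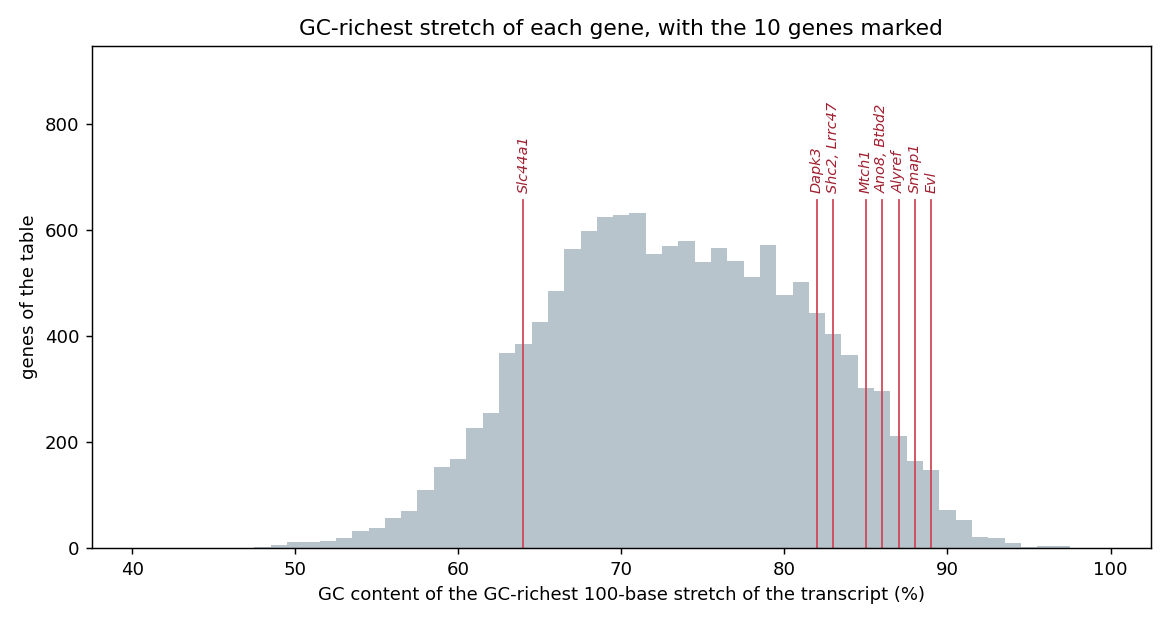
Histogram over the 13819 genes with a matched transcript of the GC content (%) of the GC-richest stretch of 100 bases, with a red line at the value of each named gene. The lines of 9 genes stand at 82% or above, to the right of the upper quartile of 80%, and Slc44a1 stands at 64%.

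GC content of the whole transcript was high in 7 members, from 58.5% in Lrrc47 to 63.6% in Ano8, all above the upper quartile of 55.2% over all genes. It was 47.0% in Alyref, 47.5% in Smap1 and 41.7% in Slc44a1, all below the median of 50.4%. Transcript lengths ran from 1730 bases in Dapk3 to 4382 bases in Slc44a1, against quartiles of 2053 and 4706 bases, so the members were neither unusually short nor unusually long. Shc2, Btbd2 and Dapk3 lie near each other on chromosome 10, between 79618051 and 81193197 (mm10). Between them 72 other genes were tested at P0. Of these, 1 was called lower (Hcn2, a pacemaker channel, from 19.8 ± 6.08 to 3.89 ± 2.35, SD, n = 5 each), and the median of the 72 was 0.01 on the log2 scale. That interval was chosen after the values were seen.

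Promoter sequence from RefSeq (GRCm38.p6) was at hand for 9 of the 10 genes. All 9 held a GC box, written GGGCGG and searched on both strands with overlapping matches allowed, in the 250 bases before the start site. The same letters were present in 57.9% of 11263 promoters of genes in the table. Promoter GC content ran from 54.8% (Dapk3) to 81.2% (Slc44a1), with a median of 64% against 59.6% over all promoters, and 2 of the 9 were above the upper quartile of 66.8%. The promoters with the lowest and the highest GC content are printed here with GC boxes in capitals. They lie at chr10:81182757-81183006 (plus strand) and chr4:53440163-53440412 (plus strand).
Dapk3: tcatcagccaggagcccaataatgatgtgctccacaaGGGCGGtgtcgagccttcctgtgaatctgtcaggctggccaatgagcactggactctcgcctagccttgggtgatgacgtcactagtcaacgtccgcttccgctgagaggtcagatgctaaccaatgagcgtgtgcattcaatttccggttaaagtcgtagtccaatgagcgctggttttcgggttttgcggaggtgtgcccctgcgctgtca
Slc44a1: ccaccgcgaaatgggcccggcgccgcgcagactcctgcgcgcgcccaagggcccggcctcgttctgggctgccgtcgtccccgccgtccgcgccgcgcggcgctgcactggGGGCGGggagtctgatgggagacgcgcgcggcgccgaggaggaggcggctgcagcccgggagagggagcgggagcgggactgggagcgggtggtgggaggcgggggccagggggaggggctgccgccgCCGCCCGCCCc
A TATA box (TATAAA) was found in Alyref alone of the 9, against 6.7% of all promoters. CCAAT occurred in 3 (Dapk3, Alyref and Btbd2), against 36.1% of all. The cAMP response element core TGACG occurred in 3 (Dapk3, Alyref and Smap1), against 26.0%. The ETS letters CCGGAAG occurred in 3 (Alyref, Smap1 and Lrrc47), against 12.2%. AAGATGG, a YY1 motif, occurred in Btbd2 alone, and the E-box CACGTG in none of the 9. These matches describe letters and not sites of binding.

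Values below are the authors' normalized signal, which is reads per gene divided by an effective library size, on a scale like counts per M reads. It is not divided by gene length, so levels are compared between libraries and not between genes. Depth was 22.4 to 37.1 M reads per library. No pair of libraries held identical values. Pomc itself ranged from 146 to 1308 in the chow P0 libraries and from 90.7 to 1057 in the HFD P0 libraries, and from 3878 to 12070 and from 7460 to 9818 in the chow and HFD P21 libraries. Cartpt ran from 7.21 to 106 and from 7.93 to 16.7 at P0. Rpl22, the ribosomal protein that the RiboTag allele modifies, ran from 33.5 to 78.9 at P0 and from 16.6 to 28.4 at P21. Markers of other cells were present as well. The 8 oligodendrocyte-lineage markers summed to between 3495 and 16224 at P21, and fibroblast and meningeal markers to between 140 and 725 at P0. By these sums of markers of other cells, the RNA was not of POMC neurons alone. Of the listed markers in the table, those of POMC neurons included, 0 were at 0 in every library. In such bulk samples a lower share of cells of a type and less RNA per cell cannot be told apart.

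At birth, all 10 genes were lower in each of the HFD libraries than in any chow library. Groups that do not overlap in that direction were found in 1.71% of the 14086 genes tested at P0, and an adjusted p under 0.05 (limma) with a lower value in HFD in 0.284%. Since this contrast chose the members, their values are described without a test, and nothing is read from these shares. On the log2(value + 1) scale the differences ran from -1.14 to -3.72, with a median of -1.71 against -0.0024 over all genes tested. The scale understates the change of genes near 0.

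Of the signalling genes, Dapk3 had values of 51.7, 56.1, 32.7, 52.1 and 77.1 in the chow P0 libraries and of 4.14, 4.62, 6.06, 3.84 and 2.11 in the HFD P0 libraries. The lowest chow value was 5.39 times the highest HFD value. The group means were 53.9 ± 15.8 and 4.15 ± 1.43 (SD, n = 5 each), a ratio of 13 and a log2 difference of -3.41 (SE 0.26). Even the lowest of these values rested on 72 reads. Shc2 had values of 43.4, 56.0, 46.1, 86.4 and 84.1 in chow and of 23.6, 25.9, 19.6, 19.4 and 12.3 in HFD libraries. Chow libraries 4 and 5 stood above the rest, and the gap between the groups was narrower than for Dapk3, the lowest chow value being 1.68 times the highest HFD value. The log2 difference was -1.58 (SE 0.24).

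Of the RNA-related genes, Alyref had values of 110, 92.6, 86.0, 110 and 123 in the chow P0 libraries and of 24.8, 29.8, 33.5, 22.3 and 9.10 in the HFD P0 libraries. HFD library 5 was below the other HFD libraries, and the chow values varied by a factor of 1.43 only. The mean in chow was 4.37 times that in HFD, a log2 difference of -2.18 (SE 0.27). Lrrc47 had values of 33.3, 29.0, 31.6, 48.0 and 67.6 in chow and of 8.16, 14.1, 13.5, 14 and 6.06 in HFD libraries. Its log2 difference was -1.81 (SE 0.28). As for Shc2, chow libraries 4 and 5 were the highest.

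Of the membrane proteins, Ano8 differed most of the 10 genes. Its values were 23.4, 27.8, 22.3, 50.2 and 57.7 in the chow P0 libraries and 1.29, 0.68, 4.35, 1.52 and 1.4 in the HFD P0 libraries. The lowest of these, 0.68, rested on 16 reads, and a value of 0 would still allow up to 3 reads (counting error only). The means were 36.3 ± 16.5 and 1.85 ± 1.44 (SD, n = 5 each), a ratio of 19.6 and a log2 difference of -3.72 (SE 0.35). HFD library 3 stood above the other HFD libraries.

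Slc44a1 had 9.75, 10.6, 11.7, 9.32 and 9.29 in the chow P0 libraries and 2.90, 1.78, 3.43, 3.16 and 1.78 in the HFD P0 libraries. Its chow values were the tightest of the 10 genes, with an SD of 0.13 on the log2 scale. The mean in chow was 3.88 times that in HFD, and the log2 difference was -1.65 (SE 0.24). Mtch1 had values of 843, 833, 755, 1057 and 1084 in chow and 265, 396, 366, 276 and 121 in HFD libraries. Its means were 914 ± 147 and 285 ± 108 (SD, n = 5 each), and the log2 difference was -1.77 (SE 0.26). HFD library 5 was again the lowest.

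Of the trafficking and cytoskeletal genes, Smap1 had values of 96.8, 94.5, 66.1, 95.5 and 128 in the chow P0 libraries and of 35.8, 38.3, 33.4, 27.8 and 18.5 in the HFD P0 libraries. The log2 difference was -1.63 (SE 0.21). Evl, the member with the smallest difference, had 185, 214, 161, 202 and 205 in chow and 81.7, 103, 112, 89.1 and 58.3 in HFD libraries. Its lowest chow value was 1.44 times its highest HFD value, and the log2 difference was -1.14 (SE 0.17). Btbd2, the BTB-domain protein, had 88.0, 84.4, 73.7, 100 and 102 in chow and 42.7, 44.1, 38.0, 44.4 and 23.8 in HFD libraries. Its HFD values lay within 38.0 to 44.4 except in library 5, and the log2 difference was -1.22 (SE 0.18).

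**Figure D2:**
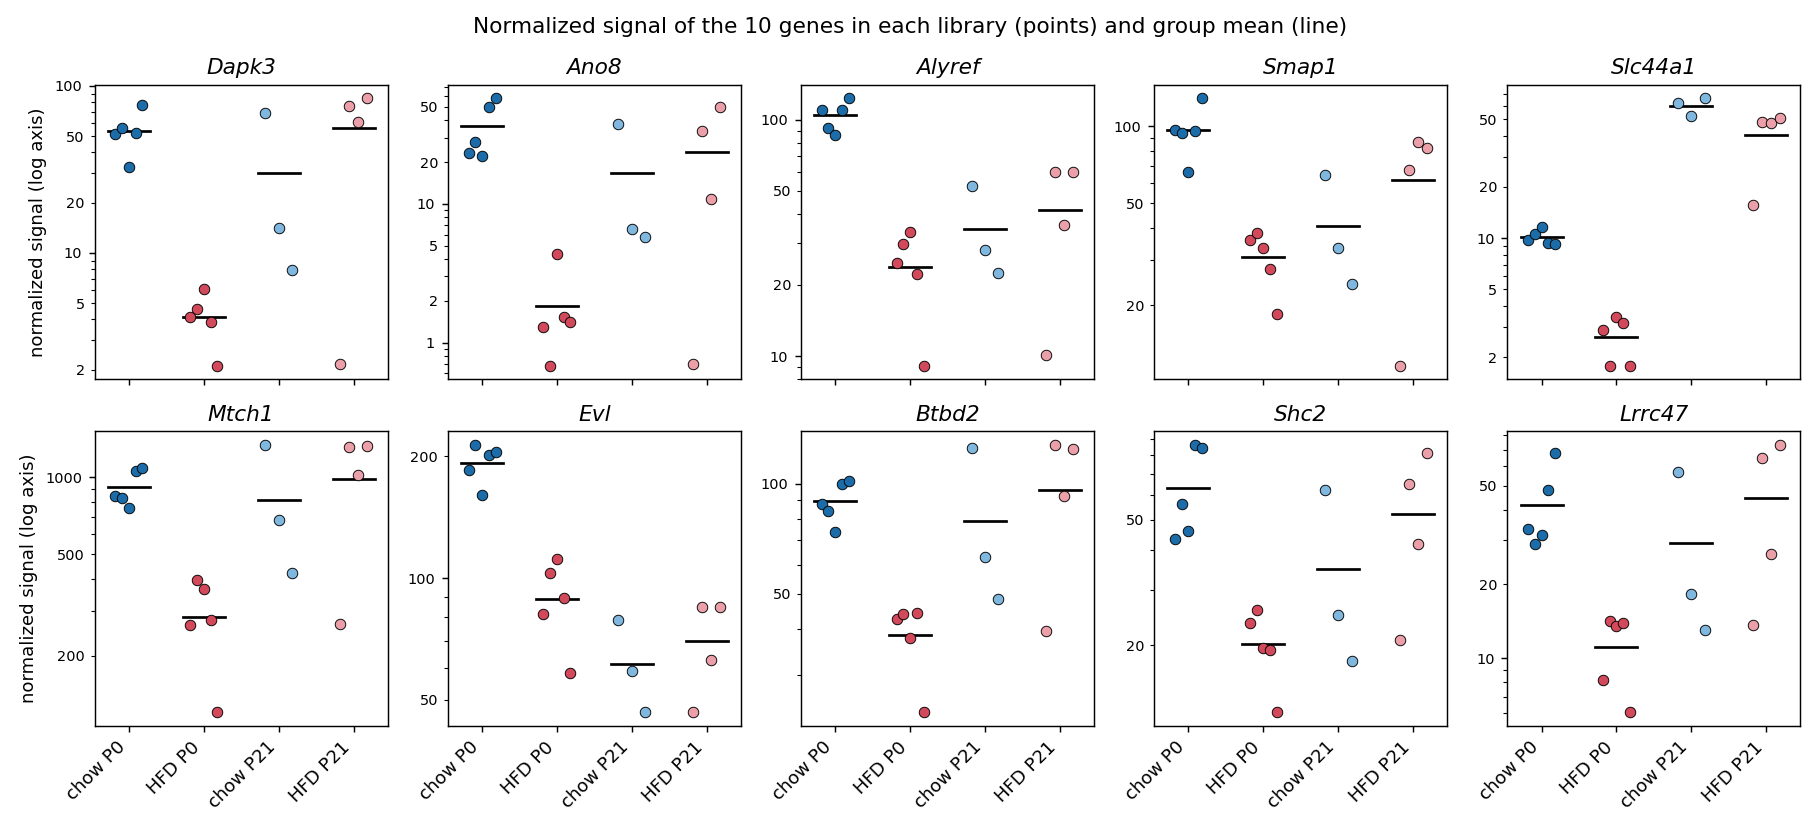
Normalized signal (log axis, 1 panel per gene) in each library of the 4 groups, with points for libraries and black lines for group means. At P0 the 5 HFD points lie below the 5 chow points in all 10 panels, while at P21 the points of both diets spread widely and overlap in every panel except that of Slc44a1.

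At birth no cell type marker separated the diets in every library. Of 70 marker genes tested at P0, 0 passed (limma, adjusted p), 4 had an unadjusted p under 0.05, and the groups overlapped in every one. The 11 POMC-neuron markers summed to between 1640 and 3966 in chow (median 2937) and between 1688 and 3925 in HFD libraries (median 1790), and 8 of the 11 had a difference below 0, with a median of -0.53 on the log2 scale. Markers of other hypothalamic neurons were below 0 in 14 of 15 (median -0.18), and those of fibroblasts and meninges in 0 of 6 (median 0.35). Astrocyte and tanycyte markers were below 0 in 7 of 8 (median -0.15) and oligodendrocyte-lineage markers in 5 of 6 (median -0.31). Microglial markers were below 0 in 3 of 8 (median 0.03), endothelial and mural markers in 3 of 8 (median 0.04), and choroid plexus and ependymal markers in 4 of 7 (median -0.15). The part of these shifts in the members' difference was not tested. HFD library 5, the lowest for 8 of the 10 members, had the highest POMC-neuron sum of the HFD libraries, whereas chow library 5, the highest for 7 of the 10, had the highest of the chow libraries.

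Several members overlap a gene on the opposite strand, and the strand setting of the counting is not given in the sources used here, so reads from the overlap could be assigned to neither or to either gene. The overlap took up 58.1% of the exonic bases of Smap1 (with B3gat2), 29.7% of Lrrc47 (with Smim1), 9.46% of Evl (with Degs2), 8.37% of Dapk3, 4.46% of Slc44a1, 1.17% of Ano8 (with Dda1) and 1.16% of Shc2. Of the 7 partners, the 4 named here are in the table, and none of the 4 was called at P0. B3gat2, a glucuronyltransferase, had 9.04 ± 1.89 in chow and 10.2 ± 1.41 in HFD libraries, a log2 difference of 0.17 (SE 0.22, limma adjusted p = 0.860). Smim1 had -0.53 (SE 0.33, limma adjusted p = 0.662), Degs2 -0.11 (SE 0.40, limma adjusted p = 0.957) and Dda1 -0.01 (SE 0.14, limma adjusted p = 0.991). Alyref, Mtch1 and Btbd2 overlapped no other gene.

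The nearest paralogues were not chosen from this contrast and were tested in it. Of 14 listed, 13 were tested at P0 and 0 passed (limma, adjusted p), against 0.291% of all genes called in either direction. At an unadjusted p under 0.05 there were 3, namely Shc3, Btbd1 and Dapk1. Dapk1, the larger kinase of the Dapk3 family, was at 52.0 ± 10.3 in chow and 71.3 ± 8.38 in HFD libraries (SD, n = 5 each), a log2 difference of 0.46 (SE 0.16, limma adjusted p = 0.356) in the direction opposite to Dapk3. Dapk2 was low, at 1.43 ± 1.27 and 0.88 ± 0.92, with a log2 difference of -0.36 (SE 0.43). Alyref2, the intronless relative of Alyref, was at 16.0 ± 1.26 and 13.7 ± 2.08, a log2 difference of -0.22 (SE 0.19, limma adjusted p = 0.771). Mtch2, the insertase that acts beside Mtch1, was at 195 ± 34 and 189 ± 40.3, a log2 difference of -0.05 (SE 0.18).

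Smap2, the second small Arf GTPase-activating protein, was at 99.4 ± 23.9 in chow and 98.6 ± 28.1 in HFD libraries, a log2 difference of -0.02 (SE 0.20). The chow and HFD means of Smap2 thus differed by less than 1 SD, whereas the groups of Smap1 did not overlap. Slc44a2, another choline transporter-like protein, had a log2 difference of 0.25 (SE 0.16), and Ano10 and Ano6 had -0.30 (SE 0.31) and -0.03 (SE 0.20). Enah and Vasp, the other Ena/VASP proteins, had -0.49 (SE 0.26) and -0.19 (SE 0.21), and Shc1 had 0.15 (SE 0.23).

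Shc3 and Btbd1 came closest to their paralogues. Shc3, the Shc adaptor most restricted to neurons, had 4.41, 14.1, 8.81, 13.3 and 16.2 in chow and 3.98, 1.70, 3.08, 4.96 and 2.11 in HFD libraries, which overlap, and a log2 difference of -1.52 (SE 0.34, limma adjusted p = 0.0842). Btbd1, which like Btbd2 binds topoisomerase I, had 174, 192, 180, 197 and 200 in chow and 112, 125, 148, 127 and 60.8 in HFD libraries. The groups did not overlap, and the log2 difference was -0.77 (SE 0.20, limma adjusted p = 0.153). Shc3 passed without chow library 1 (-1.79, limma adjusted p = 0.0294) and Btbd1 without HFD library 5 (-0.56, limma adjusted p = 0.0473).

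**Figure D3:**
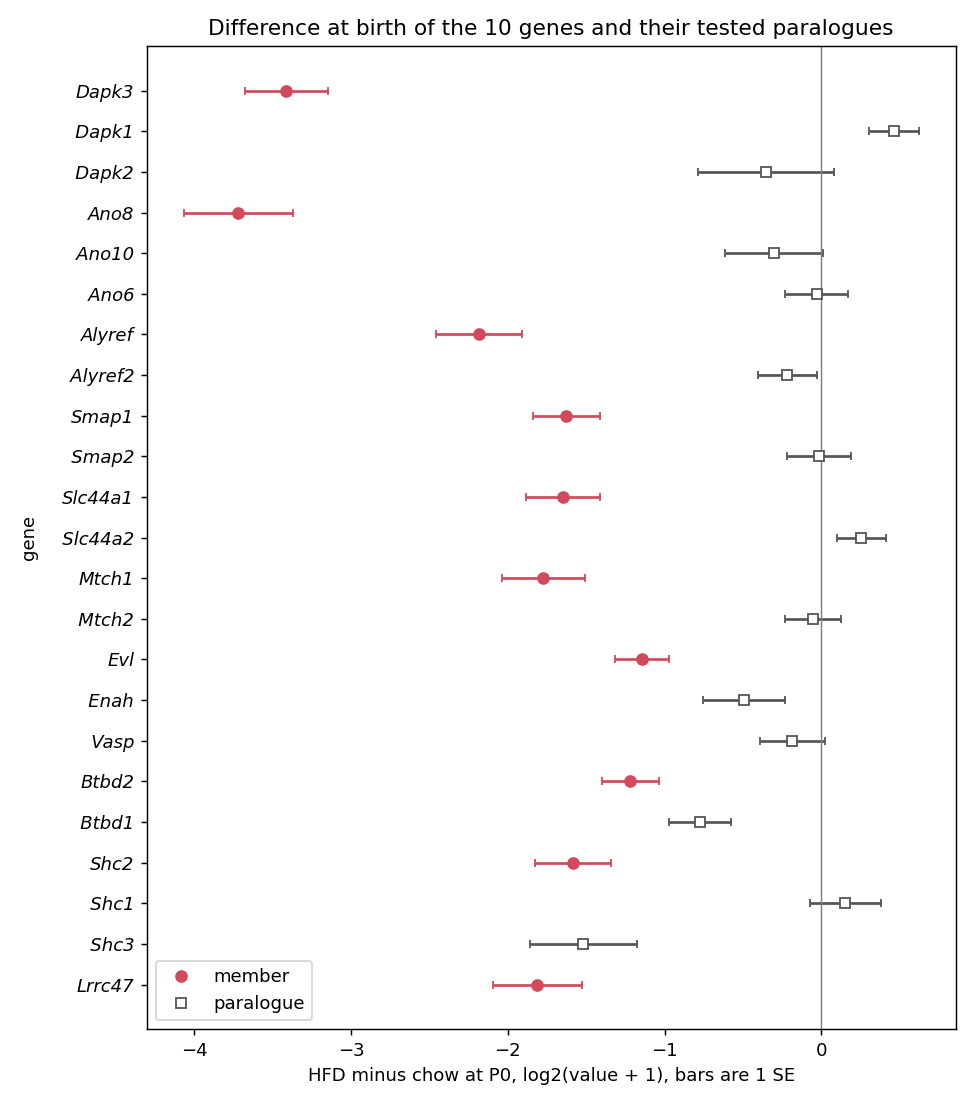
HFD minus chow difference at P0 on the log2(value + 1) scale, with bars of 1 SE, for the 10 genes (red circles, chosen from this contrast) and their 13 tested paralogues (open squares, listed below each). The members run from -3.72 to -1.14, and the paralogues from -1.52 (Shc3) to 0.46 (Dapk1).

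Among 155 genes of 11 lists built around the members' families and pathways, 143 were tested at P0. A single gene fell and 0 rose, 12 had an unadjusted p under 0.05 (8.39%, against 9.28% of all genes), and the median was -0.02. The gene that fell was Arf6, the GTPase that Smap1 acts on. Its values were 72.1, 98.9, 66.6, 80.3 and 81.3 in chow and 24.1, 52.0, 30.6, 29.2 and 10.2 in HFD libraries, a log2 difference of -1.57 (SE 0.31, limma adjusted p = 0.0493). The call was lost in most alternatives, among them each of the edgeR count tests. In the same list of 18 tested genes Agfg1, an Arf GTPase-activating protein of clathrin-coated vesicles, was next by p, at -1.01 (SE 0.23, limma adjusted p = 0.0842).

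The other lists had 0 genes past the test at P0, and the closest genes in each are given here with limma adjusted p. Of 14 genes of the DAPK family and myosin light chain control, Dapk1 (above) and Rock2, a kinase of the actomyosin cytoskeleton, were first (-0.51, adjusted p = 0.449). Of 20 genes of TREX mRNA export, which holds the complex that Alyref belongs to, 8 were below 0 and the median was 0.07. Its first genes were Thoc3 at 0.32 (adjusted p = 0.556) and Ncbp2 at -0.44 (adjusted p = 0.569), so the lower Alyref stood beside complex partners that did not pass.

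Of 11 genes of choline uptake and phosphatidylcholine synthesis, Chka, the choline kinase that acts on imported choline, was at 0.40 (adjusted p = 0.369) and Cept1 at -0.67 (adjusted p = 0.550). Of 14 genes in the list around Mtch1, on mitochondrial outer membrane insertion and its partners, Aph1a was first at 0.32 (adjusted p = 0.544). Of 17 actin regulators around Ena/VASP, Wasf3 was at 0.52 (adjusted p = 0.387) and profilin Pfn1 at -0.26 (adjusted p = 0.583). Of 16 BTB adaptors and DNA topoisomerases, Top2b was at -0.42 (adjusted p = 0.328) after Btbd1.

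Of 16 Shc adaptors and neurotrophin signalling genes, the kinase Map2k1 was at -0.59 (adjusted p = 0.545) after Shc3. Of 7 anoctamins, Ano4 was at -0.77 (adjusted p = 0.586) and Ano1 at -0.40 (adjusted p = 0.767). Of 10 genes of leucine-rich-repeat proteins and phenylalanyl-tRNA synthetase, Lrrc8d, a volume-regulated anion channel subunit, was at -0.93 (adjusted p = 0.215) and Farsb at -0.31 (adjusted p = 0.633).

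At weaning, libraries that had no part in choosing the genes could be tested, and none of the 10 genes passed the test. With limma 0 of 10 passed at an adjusted p of 0.05, against 0.178% of 14070 genes called in either direction. At an unadjusted p under 0.05 there were also 0, against 17% of all genes, and edgeR called 0 of them. The differences ran from -0.69 to 0.68 with a median of 0.23, and 9 of the 10 were above 0. The SEs ran from 0.24 (Evl) to 1.02 (Dapk3). A p above the threshold does not show that the diets had equal levels.

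Single libraries of each diet lay far apart. Dapk3 had values of 68.5, 14.1 and 7.86 in the chow P21 libraries and of 2.17, 76.1, 60.6 and 84.3 in the HFD P21 libraries. Both groups held high and low libraries, and the log2 difference was 0.68 (SE 1.02, limma adjusted p = 0.776). The lowest HFD value was that of library 1, and the highest was 38.8 times as large. Shc2 had 62.0, 24.9 and 17.8 in chow and 20.8, 64.8, 41.8 and 81.0 in HFD libraries, a log2 difference of 0.60 (SE 0.46, limma adjusted p = 0.541).

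Alyref had 52.7, 28.2 and 22.4 in the chow P21 libraries and 10.1, 60.1, 36.1 and 60.4 in the HFD P21 libraries, a log2 difference of 0.09 (SE 0.51, limma adjusted p = 0.953). Lrrc47 had 56.6, 18.2 and 13 in chow and 13.7, 64.7, 26.4 and 73.2 in HFD libraries, a log2 difference of 0.59 (SE 0.57, limma adjusted p = 0.637). Chow library 1 and HFD libraries 2 and 4 were high for both of these RNA-related genes, and chow libraries 2 and 3 and HFD library 1 were low. Ano8 repeated the pattern with 37.6, 6.56 and 5.79 in chow and 0.70, 33.4, 10.9 and 50.2 in HFD libraries, a log2 difference of 0.13 (SE 0.98, limma adjusted p = 0.964). Mtch1 had 1340, 678 and 420 in chow and 266, 1313, 1023 and 1329 in HFD libraries, a log2 difference of 0.19 (SE 0.51, limma adjusted p = 0.877). In both membrane genes HFD library 1 was the lowest of the 7.

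Smap1 had 64.5, 33.4 and 24.3 in the chow P21 libraries and 11.6, 67.2, 86.8 and 82.0 in the HFD P21 libraries, a log2 difference of 0.38 (SE 0.58, limma adjusted p = 0.781). Evl had 78.8, 58.8 and 46.6 in chow and 46.6, 84.7, 62.8 and 84.9 in HFD libraries, a log2 difference of 0.17 (SE 0.24, limma adjusted p = 0.758). Btbd2 had 125, 63.1 and 48.5 in chow and 39.6, 128, 92.8 and 124 in HFD libraries, a log2 difference of 0.26 (SE 0.39, limma adjusted p = 0.774). Evl had the narrowest range of these genes, with 1.82 between the highest and lowest HFD values.

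Slc44a1 was the exception at weaning too. It had 61.9, 52.2 and 66.4 in the chow P21 libraries and 15.6, 47.9, 47.5 and 50.6 in the HFD P21 libraries, so the groups did not overlap, as was so for 7.78% of all genes in that direction. The log2 difference was -0.69 (SE 0.34, limma adjusted p = 0.337). Without HFD library 1 it was -0.29. Slc44a1 is expressed by myelinating glia as well as neurons. Beside it, the 8 oligodendrocyte-lineage markers summed to 7392, 10879 and 16224 in the chow and to 3708, 5841, 6599 and 3495 in the HFD libraries, and all 8 had a difference below 0 (median -1.11). The 8 astrocyte and tanycyte markers summed to 1300, 1694 and 1752 in chow and to 935, 1068, 1035 and 568 in HFD libraries. None of these 16 markers passed the test. Over all lists, 42 of 75 marker genes had an unadjusted p under 0.05 at P21 (56.0%, against 17% of all genes), and 1 was called, Cartpt (1.91, SE 0.23, limma adjusted p = 0.0137). Microglial and endothelial or mural markers were below 0 in 8 of 8 each (medians -0.85 and -1.14), and POMC-neuron markers in 1 of 11 (median 0.72). The part of these markers in the P21 differences of Slc44a1 and the other members was not tested.

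HFD library 1 at P21, the lowest library for 8 of the 10 genes, had 30.9 M reads, against 31.9 to 32.6 M in the other HFD P21 libraries and 22.4 to 37.1 M in the chow P21 libraries. Its POMC-neuron markers summed to 15473, against 12872 to 13649 in the other HFD P21 libraries. Leaving it out moved Dapk3 from 0.68 to 1.82 and Ano8 from 0.13 to 1.14 on the log2 scale, and 0 of 10 genes passed the test. Of the members, Ano8, Alyref, Mtch1, Evl and Btbd2 changed sign when a single library was left out.

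**Figure D4:**
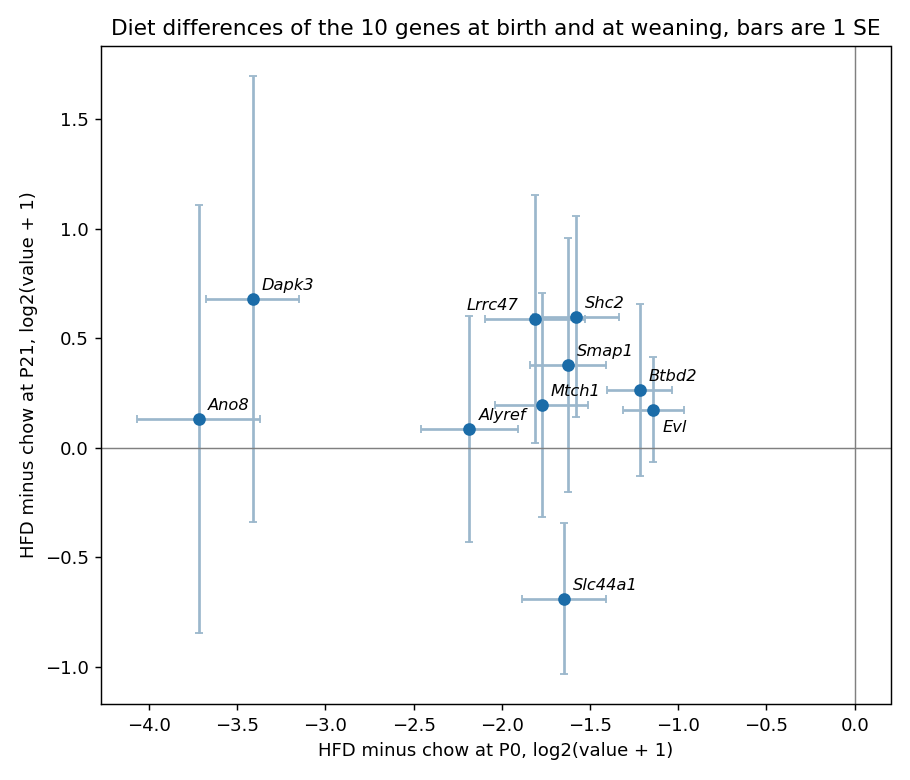
HFD minus chow difference of each of the 10 genes at P0 (horizontal axis) and at P21 (vertical axis), both on the log2(value + 1) scale with bars of 1 SE. At P0 all lie at -1.14 or below, by the choice of the genes. At P21, 9 lie between 0.09 and 0.68 and Slc44a1 lies at -0.69.

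The family lists at P21 gave 0 calls among 146 tested genes with limma and with edgeR, 26 had an unadjusted p under 0.05 (17.8%, against 17% of all genes), and the median was 0.06. All 14 paralogues were tested and 0 had an unadjusted p under 0.05. The largest differences among them were -0.68 for Shc3 (SE 0.54) and -0.60 for Dapk2 (SE 0.41). The adjusted p of the 2 closest genes of each of the other lists ran from 0.0649 to 0.407 in limma.

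For TREX mRNA export, 18 of 20 genes were above 0, with a median of 0.30 and 7 at an unadjusted p under 0.05. Nxf1, the nuclear export receptor that Alyref hands mRNA to, was at 36.2 ± 3.82 in chow (SD, n = 3) and 60.7 ± 6.44 in HFD libraries (SD, n = 4), a log2 difference of 0.73 (SE 0.17, limma adjusted p = 0.0847). Zc3h11a was at 0.55. Around Slc44a1, the phospholipid synthesis enzymes Cept1 and Ept1 were at 0.62 and 0.56. Around Btbd2, Kctd5 was at -0.79 (limma adjusted p = 0.0649) and Btbd10 at 0.41. Around Evl, the spectrin gene Sptan1 was at -1.06 (limma adjusted p = 0.0792) and Actr3 at 0.30.

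In the list around Dapk3, myosin light chain kinase Mylk was at -1.42 and Rock1 at -0.75. Around Mtch1, Aph1a was at -0.64 and Ncstn at 0.31, and around Shc2, Gab1 was at -0.80 and Map2k1 at 0.39. Around Lrrc47, Farsb was at 0.55 and Lrrc8a at -0.56, around Ano8, Ano7 was at 0.63 and Ano5 at 0.56, and around Smap1, Acap2 was at -0.58 and Git1 at -0.32. None of these passed the test.

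Between birth and weaning most of the 10 genes differed in opposite directions in the diets. All age differences are given without a test because the P0 libraries chose the genes. The P0 gap that chose them sets the age differences of the diets apart wherever the diets differ little at P21. Nothing is therefore read from the opposite directions or from the distance to the medians over all genes. In chow offspring the P21 minus P0 difference was below 0 in 9 of 10 genes, with a median of -1.14 against -0.01 over the 14619 genes tested at P0 or P21. In HFD offspring it was above 0 in 9 of 10, with a median of 1.43 against -0.05. Dapk3 differed by -1.33 in chow (pooled SD 0.96) and by 2.76 in HFD offspring (pooled SD 1.53). Alyref differed by -1.65 and 0.62, Mtch1 by -0.32 and 1.65, Lrrc47 by -0.71 and 1.69, and Ano8 by -1.46 and 2.39. Slc44a1 was higher at P21 in both diets, by 2.46 and 3.41, and Evl was lower at P21 in both, at -1.66 and -0.35.

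Single P21 libraries reached the levels of both P0 groups. In HFD library 1 at P21, 9 of 10 members were at or below the highest HFD P0 value. In chow libraries 2 and 3 at P21, 9 of 10 members were below the lowest chow P0 value, and 4 and 5 of 10 were at or below the highest HFD P0 value. In HFD library 4 at P21, by contrast, 5 of 10 were above the highest chow P0 value.

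The members moved together from library to library within a group. Each value was set against the mean of its own group on the log2(value + 1) scale, which removes the diet difference at birth. Over the 7 P21 libraries, Pearson's r between 2 members had a median of 0.95 over the 45 pairs, from 0.65 (Slc44a1 and Lrrc47) to 0.99 (Dapk3 and Mtch1), and Spearman's rank correlation had a median of 0.89. Without the 2 libraries farthest from the median, chow library 3 and HFD library 1, the median r was 0.88. These are descriptions over few libraries, which share depth scaling and group means.

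At P0 the median r was 0.72 over 10 libraries, from -0.05 (Slc44a1 and Shc2) to 0.97 (Alyref and Mtch1), and the median rank correlation was 0.59. Without the 2 farthest libraries, chow library 3 and HFD library 5, the median r was 0.40 and 8 of 45 pairs were below 0, so the value at P0 rested on these libraries. Slc44a1 followed the mean of the other 9 least at both ages, with r of 0.22 at P0 and 0.82 at P21. Ano8 was next at P0 (0.46), whereas at P21 it had 0.98.

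As mean deviation over the 10 genes, the chow P21 libraries stood at 0.91, -0.27 and -0.64 and the HFD P21 libraries at -1.70, 0.69, 0.16 and 0.85. All 10 genes were above their group mean in chow library 1 and in HFD libraries 2 and 4, and all 10 were below it in chow library 2 and HFD library 1. The chow P0 libraries stood at -0.13, -0.08, -0.33, 0.18 and 0.37 and the HFD P0 libraries at 0.04, 0.18, 0.38, 0.07 and -0.67. In HFD library 5 at P0 all 10 genes were below their mean. The spread of members at P21 was wide among genes. The median SD of the members on the log2 scale was 0.77 in chow and 1.11 in HFD libraries, against 0.25 and 0.30 over all genes tested, and 7 and 9 of the 10 were above the 90th percentile of all genes. At P0 the members' median SDs were 0.28 and 0.42, against 0.34 and 0.37, and 0 were above that percentile. The choice of the genes from the P0 contrast favours a small spread at P0, so no difference in spread between the ages is read from this.

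**Figure D5:**
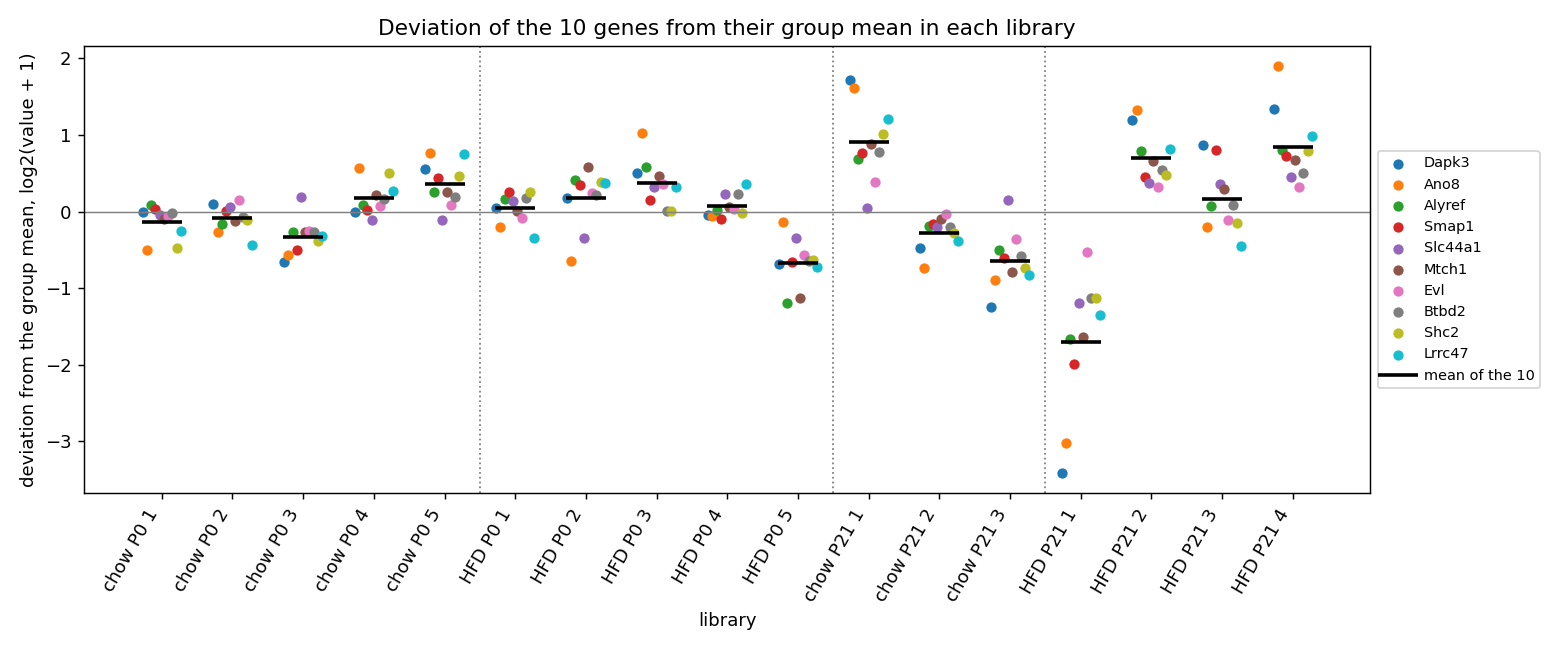
Deviation of each of the 10 genes from its group mean on the log2(value + 1) scale (coloured points) in the 17 libraries, with black bars for the mean over the 10 genes and dotted lines between groups. The bar stands at -1.70 in HFD P21 library 1 and at 0.91 in chow P21 library 1, and between -0.67 and 0.38 in the P0 libraries.

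The genes most like the members in these deviations, over 17 libraries and 13527 other genes, were Phc2, Tmem158, Rab12, Mocs3, Prkaca, Vstm2l, H1fx, Kdm1a, Kctd2 and Pi4k2a. Their r with the mean deviation of the members was 0.95 to 0.96. In each the groups at P0 did not overlap, with lower values in HFD libraries, as in 1.71% of all genes tested. Of the 10, 6 were called lower, against 0.284% of all genes tested. Prkaca, the catalytic subunit of protein kinase A, fell from 282 ± 69.0 to 98.4 ± 33.0 (SD, n = 5 each, log2 difference -1.57, limma adjusted p = 0.0166). Rab12, a small GTPase of endosomes, fell by 1.46 on the log2 scale, and H1fx, a linker histone, fell by 2.15, while Phc2, a Polycomb subunit, was at -1.10 and did not pass. All 10 had a GC-richest stretch of 82% to 90% GC.

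Of the 100 genes most like the members, 98 had a difference below 0 at P0 with a median of -0.91, against 50.8% of all 13527 genes and a median of -0.01. When likeness was taken over the 7 P21 libraries alone, 86 of the first 100 genes were below 0 at P0, with a median of -0.88, and 17 were called lower. Over the 10 P0 libraries alone these numbers were 79, -0.55 and 10. Of the 30 genes called lower at P0 that are not members, 24 had an r above 0.8, as did 1.21% of all. Paralogues were mostly unlike, with a median r of 0.11 over 13. Btbd1 was the exception at 0.93, Shc3 had 0.70, and Arf6 had 0.90. Btbd1 has a GC-richest stretch of 87%, while Shc3 has 76.0%.

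The GC-rich stretch went with this pattern in other genes as well. Of the 30 non-members called lower at P0, 28 had a matched transcript and 27 of these had a stretch of at least 82% GC. Of all genes tested at P0 with a matched transcript, 19.3% had such a stretch. Of 2476 tested genes with such a stretch, however, 36 (1.45%) were called lower, against 0.284% of all genes tested. These 36 include the 9 members with such a stretch, which were chosen from this contrast. The median P0 difference was 0.05 among genes of 80 to 85% and -0.14 among genes of 85% and above. As a group, non-member genes with such a stretch stood 0.12 to 0.28 higher than other genes in HFD P0 libraries 1 to 4, and the difference was -0.40 in library 5, where the values are differences of median log2 deviations from the mean of all 17 libraries. In the chow P0 libraries they stood 0.08 to 0.34 higher. At P21 the values were -0.02 to -0.11 in chow and -0.53, -0.02, -0.38 and -0.03 in HFD libraries, with the lowest in HFD library 1. The part of the GC-rich stretch in the P0 difference of the members was not tested. With the trend of each library on this measure removed, the P0 differences of the members ran from -3.46 (Dapk3) to -0.90 (Evl). The removal takes out only the median shift of genes with a similar stretch, and no cause is read from it.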

How the data were processed

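The deposited table holds normalized signal, not raw counts: each value is reads per gene divided by an effective library size, on a scale like counts per M reads, and rounded by the authors. The submitters' processing notes name mm10, TopHat2 2.0.13, HTSeq 0.6.1, Picard 1.80, edgeR and FastQC, with no settings. Per the labels' protocols, Nextera XT libraries were read as single 50-base reads. In every library 100.0% of values below 60 units lay within 0.005 units of a whole number of reads, which gave the depth. Every value column matched a sample, and 15 columns are empty.

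HFD was compared with chow within each age in R 4.3.3 by limma 3.58.1, with a trended prior on the log2(value + 1) scale. A gene entered if its value exceeded 1 in as many libraries as the smaller group has, or more, with Benjamini-Hochberg adjustment at 0.05, two-sided. A count test was foreseen for raw counts. Because the values are not counts, edgeR 4.0.16 was run as an alternative. One run used reads recovered in 5 P0 libraries. The other, in all libraries of each age, used values divided by the value of 1 read and rounded to whole reads. On simulated data for 5 against 5 libraries (14011 genes), the group sizes at birth, limma recovered 88.9% of 2-fold and 100% of 4-fold changes. The smaller groups at weaning were not simulated. These shares therefore do not give the power of the test of the members at weaning. In that test the SEs of the members ran from 0.24 (Evl) to 1.02 (Dapk3).

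The members, gene lists, tests and the naming rule were chosen with earlier results of these data known. The rule named the members, their paralogues, the 2 genes of smallest p in each family list (1 of these is not reported here), and the 10 genes most like the members. Alternatives were another pseudocount, no filter, median-ratio rescaling, removal of GC trends, 1 fit over 17 libraries, a replicate block, a robust prior, and leaving out each library. The GC-richest stretch and edgeR runs were added after seeing the data. Matched transcripts covered 90.0% of the genes.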

Additional observations from a re-analysis of the deposited data

Results flagged for a closer look

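In 30 member and group combinations of 4 or 5 libraries, the gap of the most extreme library to its nearest neighbour was compared with the range of the group, and 2 stood out; chance flags about 1 in 20. Ano8 in HFD P0 replicate 3 was at 4.35, with a gap of 0.771 of the range, against 0.68 to 1.52 in the other HFD P0 libraries. It was still below the lowest chow P0 value of 22.3. Slc44a1 in HFD P21 replicate 1 was at 15.6, with a gap of 0.910 of the range, against 47.5 to 50.6 in the other HFD P21 libraries.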

How the results depend on the processing

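No member passed the P21 test in any alternative. The count of all genes called at P21 was 25, and 16 without the filter, 46 with the trend on the GC-richest stretch removed, 42 with a robust prior, 15 with edgeR, and 3 to 51 when each library was left out. Family genes called at P0 numbered 1, and 0 with a pseudocount of 0.25, without the filter, with median-ratio rescaling, with all 17 libraries in 1 fit and with each edgeR run, and 0 to 3 when each library was left out. The median P21 minus P0 difference of the members lay between -1.59 and -0.66 in chow offspring and between 1.19 and 1.86 in HFD offspring when each library was left out, and the median r from 0.54 to 0.77 at P0 and from 0.92 to 0.98 at P21. Counts of all genes called at P0 ran from 3 with edgeR on recovered reads to 135 without HFD P0 replicate 5, against 41, and 10 with all 17 libraries in 1 fit.

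Replicate numbers are shared by the diets. Same-numbered libraries did not deviate together throughout (r of -0.04, -0.05 and 0.11 at P21, and from -0.18 to 0.51 at P0), so the numbers were not used as pairs. With a replicate block, 3 genes were called at P21 and 2 family genes at P0. Over all genes, 104 were called at P0 with the block, against 41 without it. The P21 differences of Ano8 (-0.50), Alyref (-0.18) and Mtch1 (-0.032) changed sign with the block. These values equal those without HFD P21 library 4, which has no chow library of the same number.

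Signs near 0 also turned elsewhere, none past the test. At P21 a pseudocount of 0.25 gave -0.00049 for Ano8. Leaving out single libraries gave Ano8 from -0.50 to 1.14, Alyref from -0.18 to 0.64, Mtch1 from -0.20 to 0.74, Evl from -0.0067 to 0.37 and Btbd2 from -0.022 to 0.65. At P0 the same gave Ano6 from -0.13 to 0.070, Smap2 from -0.17 to 0.087 and Mtch2 from -0.16 to 0.080. Smap2 was 0.015 with the GC-richest stretch trend removed, and edgeR on recovered reads gave 0.24 for Ano6 and 0.066 for Vasp. The cause was not tested. The member values rested on at least 16 reads, and the part of depth in their spread was not tested. The 3 and 4 libraries limit the precision at P21.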
